A study of Caenorhabditis elegans with 12 samples.

Results

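The 9 transcription factor genes described here were elt-2, elt-7, elt-3, pqm-1, hif-1, hlh-30, hsf-1, pha-4 and unc-62. They were chosen by name, as the rows of the deposited gene table that carry these symbols. The rule uses no measured value, but the set itself was proposed with earlier results of these data known. They make up 9 of the 46936 genes in the table, and all 9 were among the 15575 genes with enough counts to be tested. RNA of whole Caenorhabditis elegans was sequenced in 4 genotypes with 3 libraries each. These were the double mutant, labelled daf-2lf;skn-1gf, then daf-2lf, skn-1gf and the wild-type control. The series was made to set RNA of the double mutant beside RNA of daf-2lf. By the usual meaning of the suffixes, lf marks loss of function of daf-2, the insulin receptor gene, and gf marks gain of function of skn-1, which encodes an Nrf-family factor of stress defence. All worms grew on NGM plates with OP50 bacteria. Alleles, age and stage are not given in the sources used here, so genotype and any difference in stage cannot be told apart.

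These factors have been studied for their part in lifespan, in stress responses or in building and running the gut. ELT-2 is the main GATA factor of the intestine, ELT-7 is its close relative and works beside it, and ELT-3 is a GATA factor of the epidermis. When insulin signalling is low, the FOXO factor DAF-16 enters nuclei, while PQM-1, a zinc finger factor, is known to leave them and to act on another class of insulin-responsive genes. HIF-1, HLH-30 and HSF-1 are activated by low oxygen, by starvation and by heat, largely through control of the protein rather than of its RNA. PHA-4, the FoxA factor of the pharynx, is needed for the longevity of diet-restricted worms, and UNC-62, a Meis-type homeodomain protein, controls yolk protein genes in the intestine. RNA levels of these genes were measured here, and no protein level or nuclear location was.

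Library totals ranged from 16779245 to 29346039 counts, and a member had between 119 and 10244 counts in a library. Levels are given as CPM, counts scaled to the library's size by the TMM method, on which 3 counts correspond to 0.102 to 0.179 CPM. The variation between libraries of a genotype was 23.9%, 1 common estimate by edgeR over all tested genes and all 12 libraries. The labels name no separate cultures, so the p-values measure the spread between these libraries, which may be technical. Replicate 1 of daf-2lf stood apart: its deviation from the mean of the other daf-2lf libraries fell with gene length, with Spearman's rho of -0.576 across genes, against -0.199 to 0.132 in the libraries of the other genotypes. Genes that overlap a member held at most 0.291% of its counts, in the case of pha-4. Counts add up all isoforms of a gene, of which the Ensembl annotation lists from 1 for elt-2 and pqm-1 to 18 for unc-62. For the 9 genes, each call that differs without replicate 1 of daf-2lf is given both ways. A gene is called changed where the adjusted p of edgeR's quasi-likelihood test, corrected by the Benjamini-Hochberg method over all 15575 genes, was under 0.05.

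The tissue markers also differed between genotypes. The summed level of 8 intestinal markers was 11583 to 13623 CPM in the double mutant, 10873 to 17467 CPM in daf-2lf, 10358 to 12741 CPM in skn-1gf and 6206.5 to 7114.4 CPM in wild type. Among these 8, 5 rose and 0 fell in daf-2lf against wild type, and 6 rose and 1 fell in skn-1gf against wild type (4 and 1 with DESeq2's size factors as scaling). Over all tested genes 29.5% rose and 22.9% fell in daf-2lf, and 22.6% rose and 21% fell in skn-1gf, each against wild type. The summed level of 8 germline markers was 596 to 630.5 CPM in the double mutant, 335 to 615 CPM in daf-2lf, 419 to 1232 CPM in skn-1gf and 1661.1 to 1788.2 CPM in wild type. Oocyte and eggshell markers summed to 72.9 to 80.8 CPM in the double mutant, 40.1 to 83.5 CPM in daf-2lf, 34.2 to 141.7 CPM in skn-1gf and 330.3 to 451 CPM in wild type. The 3 mutant genotypes were thus all low in germline markers beside wild type, and all high in intestinal ones. Sperm markers summed to 0.955 to 1.68 CPM in the double mutant and 0.803 to 1.2 CPM in daf-2lf, but to 100.1 to 293 CPM in skn-1gf and 457 to 509.7 CPM in wild type. At 0 in every library were msp-10, msp-19 and msp-142 in the double mutant, and these 3 together with alg-4 and gsp-3 in daf-2lf. Of the other lists, perm-2 of the oocyte and eggshell list was at 0 in daf-2lf, and embryo markers summed to under 1 CPM in every library.

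In whole worms, more of an intestinal gene's RNA per intestinal cell cannot be told apart from a larger share of intestinal RNA in the animal, and the same holds for every tissue named here. Epidermal markers summed to 2680.2 to 3542 CPM in the double mutant, 2968.3 to 4814.6 CPM in daf-2lf, 672 to 761 CPM in skn-1gf and 2738.1 to 2792.9 CPM in wild type. The skn-1gf libraries were therefore far below all others for the epidermal sum, in which the most abundant genes weigh most. Gene by gene, 2 of the 8 epidermal markers rose and 3 fell in skn-1gf against wild type, where 22.6% of all tested genes rose and 21% fell. The median change of the 8 was 0.023, against 0.0252 over all tested genes. Pharyngeal markers summed to 328 to 555 CPM in the double mutant, 215 to 438 CPM in daf-2lf, 33.3 to 487 CPM in skn-1gf and 258 to 339.7 CPM in wild type, with overlap between every pair of genotypes. Of the tested marker genes of these lists, edgeR called none between the double mutant and daf-2lf. Over all tested genes only 1.62% were called in that pair.

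**Figure D1:**
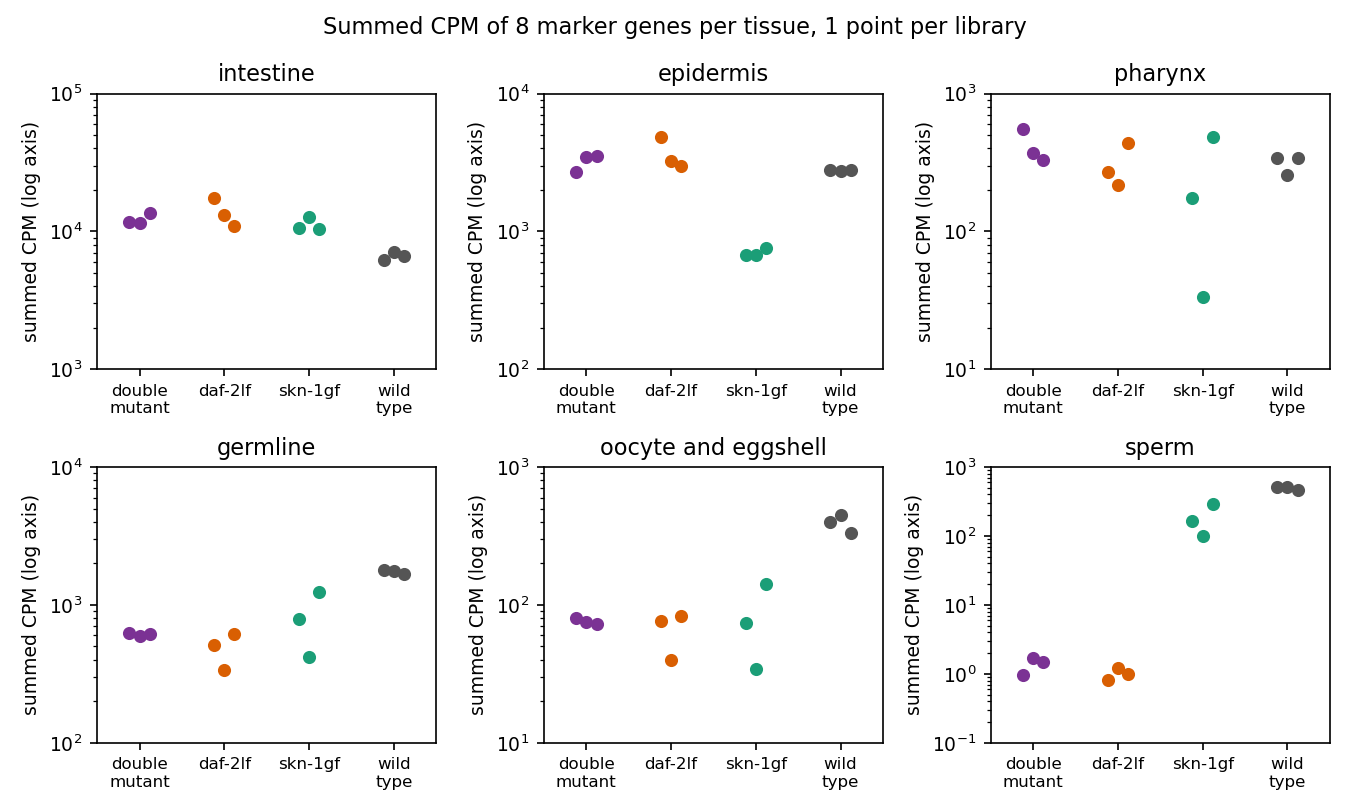
Summed CPM of 8 marker genes for each of 6 tissues in every library, on a log axis, with 1 point per library and genotypes side by side. Intestinal sums are higher in all 3 mutant genotypes than in wild type, germline sums are lower, and epidermal sums are lowest in skn-1gf.

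Per base of gene length, hif-1 and hlh-30 were the most abundant of the 9 in each genotype. hif-1 averaged 122.53 RPKM in the double mutant, 129.1 RPKM in daf-2lf, 97.0 RPKM in skn-1gf and 74.98 RPKM in wild type, where RPKM is CPM per kilobase of the deposited gene length. hlh-30 averaged 68.79 RPKM in the double mutant, 65.92 RPKM in daf-2lf, 42.56 RPKM in skn-1gf and 36.44 RPKM in wild type. In wild type the order then ran elt-2, unc-62, hsf-1, elt-3, pqm-1, elt-7 and pha-4, from 25.16 RPKM for elt-2 down to 6.34 RPKM for pha-4. Within that order the libraries of hsf-1 and elt-3 overlapped, as did those of elt-3 and pqm-1, and all other neighbours were separate.

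The order was not the same in the mutants. The middle ranks drew together in them: elt-2, elt-3, pqm-1 and unc-62 each overlapped their neighbour in the double mutant, pqm-1, elt-2 and elt-3 did so in daf-2lf, and hlh-30, elt-3, pqm-1 and elt-2 did so in skn-1gf. The lowest gene was elt-7 in the double mutant at 10.93 RPKM, hsf-1 in daf-2lf at 11.79 RPKM, and pha-4 in skn-1gf at 6.78 RPKM. In replicate 1 of daf-2lf hsf-1 held 7.72 RPKM, against 13.91 and 13.75 RPKM in replicates 2 and 3. elt-7 held 18.07, 13.51 and 10.47 RPKM in the same libraries, so the rank of hsf-1 in daf-2lf rests on replicate 1. hsf-1 overlapped pha-4 in daf-2lf, and pha-4 overlapped elt-7 in skn-1gf.

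**Figure D2:**
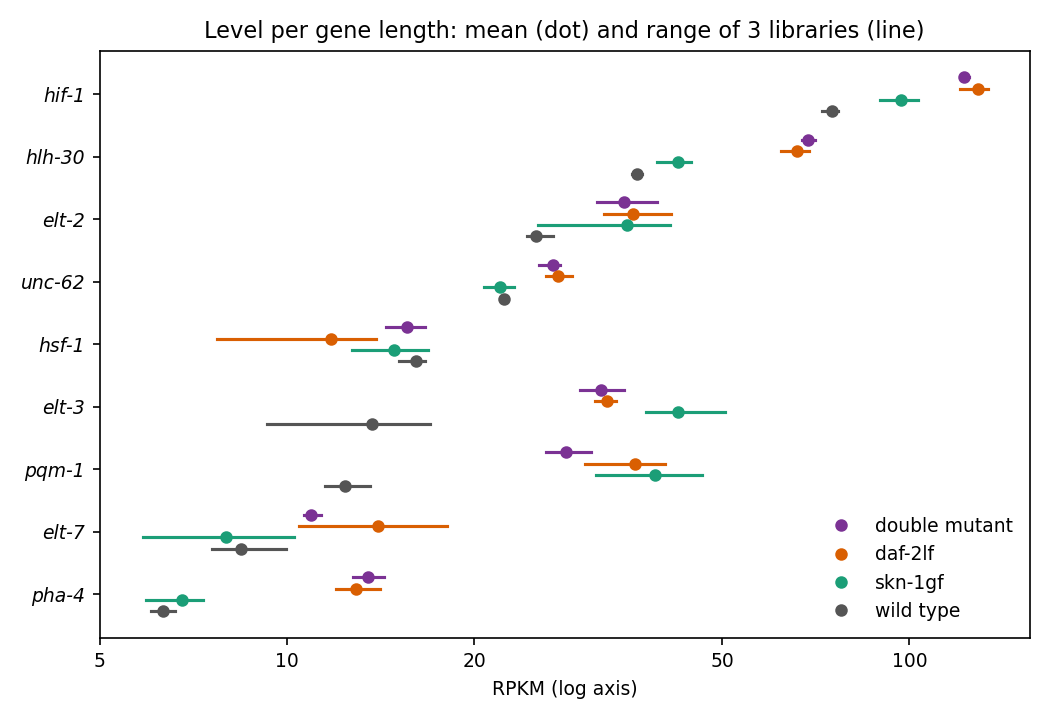
RPKM of the 9 genes in each genotype on a log axis, with the mean of 3 libraries as a point and their range as a line. hif-1 and hlh-30 lie at the top in every genotype, while elt-3 and pqm-1 sit lower in wild type than in the 3 mutant genotypes.

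elt-2 encodes the GATA factor that most intestinal genes depend on. The deposited table places it on chromosome X at 10481240 to 10483441, plus strand (WBcel235). It had 52.7, 49.0 and 61.2 CPM in the double mutant, 50.3, 64.4 and 53.7 CPM in daf-2lf, 60.4, 64.4 and 39.4 CPM in skn-1gf, and 37.9, 41.7 and 38.1 CPM in wild type. Every double mutant and daf-2lf library lay above every wild-type library, while replicate 3 of skn-1gf lay within the wild-type range. elt-2 rose in daf-2lf against wild type by 0.52 on the log2 scale (SE 0.188, edgeR adjusted p = 0.0353). That call was made in 11 of the 22 alternative settings, with adjusted p up to 0.137. It was lost without any 1 of the 3 wild-type libraries (0.0622 to 0.103), replicate 1 of skn-1gf (0.0561), replicate 2 of daf-2lf (0.12) or replicate 1 of the double mutant (0.0511). In skn-1gf against wild type the difference was 0.48 (SE 0.188, edgeR adjusted p = 0.0554), and without replicate 3 of skn-1gf the adjusted p was 0.00529. Without that library the double mutant against wild type (0.018) and the interaction (0.0242) were called as well. Between the double mutant and daf-2lf the difference was -0.05, with a 95% interval of -0.455 to 0.36.

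elt-7, on chromosome V at 4770670 to 4773086, plus strand, encodes the intestinal GATA factor that shares much of the work of ELT-2. Its level was the lowest of the 9 in CPM: 8.96, 9.09 and 9.53 CPM in the double mutant, 15.2, 11.4 and 8.81 CPM in daf-2lf, 6.61, 8.62 and 4.93 CPM in skn-1gf, and 6.50, 8.38 and 6.38 CPM in wild type. The daf-2lf libraries all lay above those of wild type, while the skn-1gf and wild-type libraries overlapped. elt-7 rose in daf-2lf against wild type by 0.74 (SE 0.241, edgeR adjusted p = 0.0225). That call was made in 14 of the 22 alternative settings. It was lost with DESeq2 (adjusted p = 0.0512), with DESeq2's size factors as scaling (0.0656) and without a filter on low counts (0.0572). It was also lost with only the groups compared in the fit (0.0907) and with length trends removed (0.0867). Replicate 1 of daf-2lf held the highest value, and without it the adjusted p was 0.129, while without replicate 1 or 3 of wild type it was 0.0803 or 0.0771. In that library elt-7 lay 0.599 above the other daf-2lf libraries on the log2 scale, where the median gene of like length lay 0.4 above. The difference in skn-1gf against wild type was -0.08 (edgeR adjusted p = 0.811).

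The ratio of elt-2 to elt-7, taken per length, was 3.18 ± 0.277 in the double mutant, 2.71 ± 0.811 in daf-2lf, 4.43 ± 0.46 in skn-1gf and 3.02 ± 0.292 in wild type (SD, n = 3 each). In replicate 1 of daf-2lf, the library that stood apart, it was 1.79, against 3.06 and 3.29 in replicates 2 and 3. The low daf-2lf mean thus rests on that library. Set against the intestinal markers, elt-2 had 4.41 ± 0.158 CPM per 1000 CPM of the 8 markers in the double mutant, 4.23 ± 1.17 in daf-2lf, 4.86 ± 0.971 in skn-1gf and 5.91 ± 0.171 in wild type (SD, n = 3 each). This value was 2.88 in replicate 1 of daf-2lf, against 4.87 and 4.94 in replicates 2 and 3. elt-7 had 0.751 ± 0.0454 CPM per 1000 marker CPM in the double mutant, 0.846 ± 0.0318 in daf-2lf, 0.593 ± 0.104 in skn-1gf and 1.06 ± 0.107 in wild type. On this scale both genes averaged highest in wild type, whereas in CPM both were lower in wild type than in the double mutant and daf-2lf. These ratios were chosen after the values were seen and were not tested.

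elt-3, the epidermal GATA factor gene, lies on chromosome X at 13934883 to 13941216, plus strand. It had 50.7, 45.8 and 43.1 CPM in the double mutant, 48.3, 49.1 and 45.4 CPM in daf-2lf, 56.6, 73.6 and 54.9 CPM in skn-1gf, and 21.5, 13.5 and 24.7 CPM in wild type. All 9 mutant libraries lay above all wild-type libraries, and the skn-1gf libraries lay above those of the other mutants. elt-3 rose in skn-1gf against wild type by 1.63 (SE 0.209, edgeR adjusted p = 9.05e-05) and in daf-2lf against wild type by 1.25 (SE 0.207, edgeR adjusted p = 0.00032). In the double mutant against wild type it rose by 1.22 (SE 0.207, edgeR adjusted p = 0.000387). Of the 8 epidermal markers, 2 rose and 3 fell in skn-1gf and 5 rose and 0 fell in daf-2lf, each against wild type. Over all tested genes 22.6% rose and 21% fell in skn-1gf, and 29.5% rose and 22.9% fell in daf-2lf. The markers' part in the values of elt-3 was not tested.

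The effect of skn-1gf on elt-3 differed between the daf-2lf and the wild-type background. Between the double mutant and daf-2lf the difference was -0.03, with a 95% interval of -0.477 to 0.41, against the rise of 1.63 in the wild-type background. The difference of these effects, the interaction, was -1.66 (SE 0.290, edgeR adjusted p = 0.00176).

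pqm-1 encodes the zinc finger factor paired with DAF-16 in insulin signalling, on chromosome II at 11150391 to 11152595, minus strand. It had 28.3, 29.6 and 33.4 CPM in the double mutant, 43.9, 41.6 and 32.7 CPM in daf-2lf, 42.5, 50.5 and 34.1 CPM in skn-1gf, and 12.5, 13.1 and 14.8 CPM in wild type. Every mutant library held more pqm-1 than any wild-type library. pqm-1 rose in skn-1gf against wild type by 1.65 (SE 0.179, edgeR adjusted p = 2.49e-05), in daf-2lf against wild type by 1.55 (SE 0.178, edgeR adjusted p = 1.77e-05) and in the double mutant against wild type by 1.18 (SE 0.177, edgeR adjusted p = 0.000148). These 3 calls held in every alternative setting.

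For pqm-1 the double mutant did not exceed the single mutants. The double mutant averaged 30.5 ± 2.65 CPM, below 39.4 ± 5.93 CPM in daf-2lf and 42.4 ± 8.18 CPM in skn-1gf (SD, n = 3 each). Against daf-2lf the difference was -0.37 (SE 0.173, edgeR adjusted p = 0.348), with a 95% interval of -0.749 to 0.00681, which includes 0. Against skn-1gf it was -0.47 (SE 0.173, edgeR adjusted p = 0.0555), and the adjusted p was 0.0157 without replicate 1 of daf-2lf in the fit, 0.0429 without replicate 3 of daf-2lf and 0.0174 without replicate 3 of skn-1gf. The interaction was -2.02 (SE 0.248, edgeR adjusted p = 0.000198). Per 1000 CPM of intestinal markers, pqm-1 had 2.48 ± 0.0688 CPM in the double mutant, 2.89 ± 0.33 in daf-2lf, 3.76 ± 0.405 in skn-1gf and 2.03 ± 0.2 in wild type (SD, n = 3 each), the same order of means as in CPM.

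**Figure D3:**
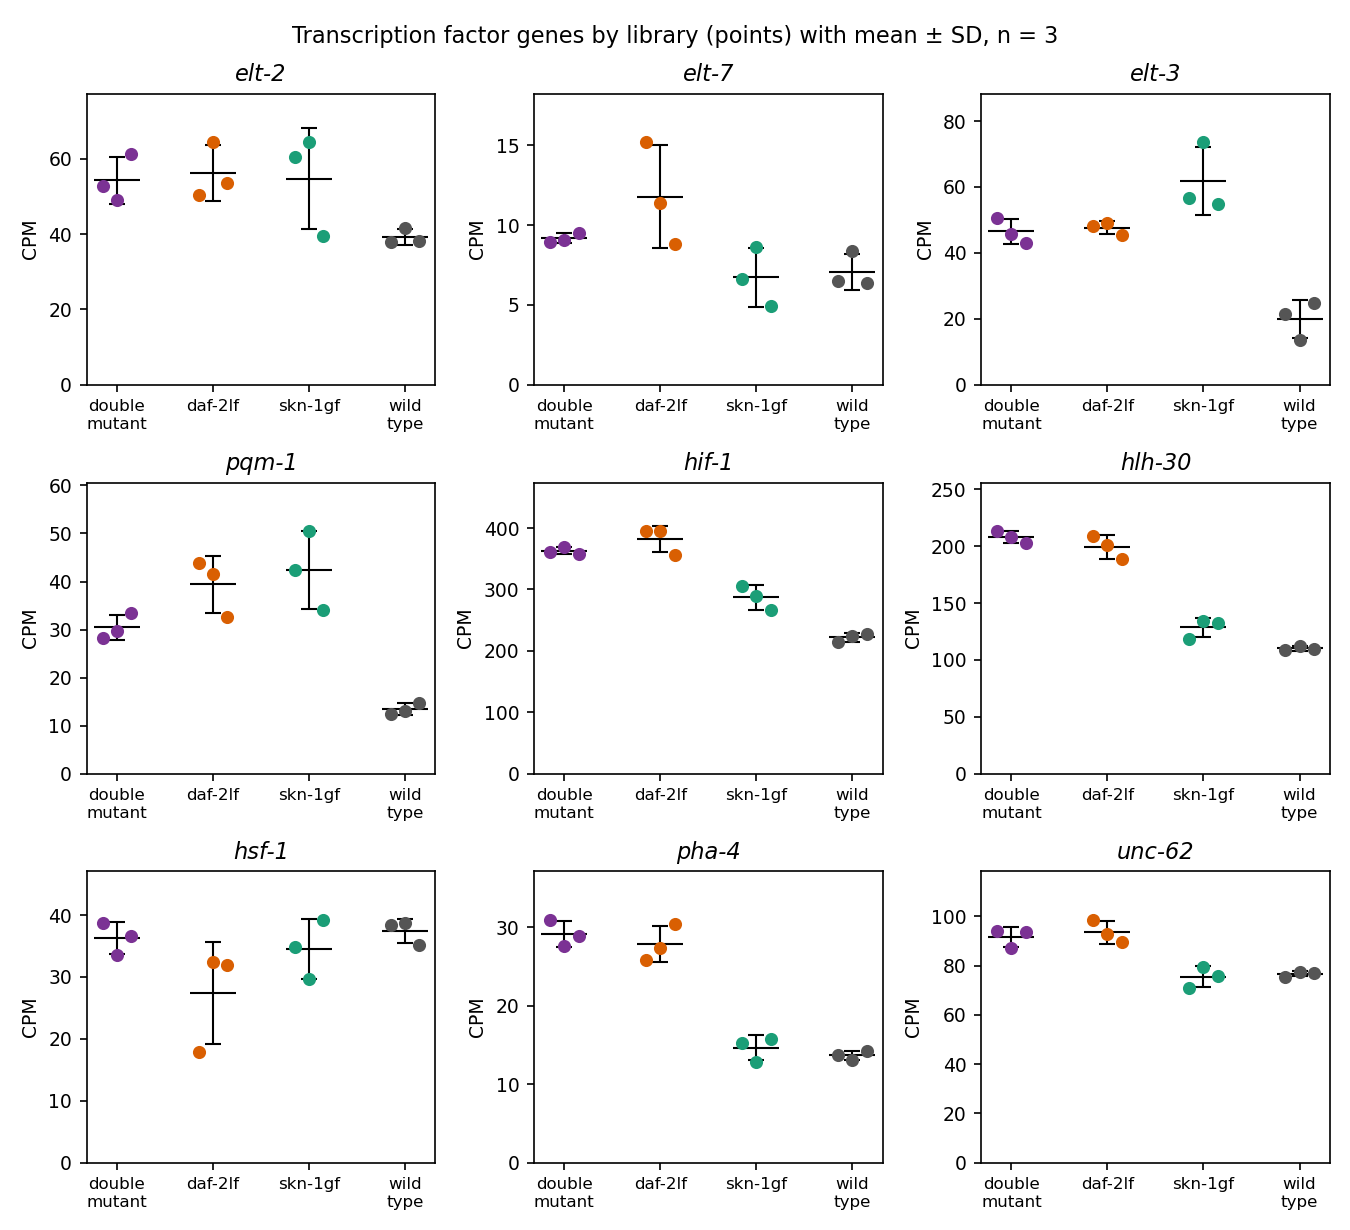
CPM of each of the 9 genes in every library, 1 panel per gene with its own axis from 0, with points for libraries and bars for the mean ± SD of 3. pqm-1 and elt-3 are higher in all 3 mutant genotypes than in wild type, pha-4 and hlh-30 are high in both genotypes with daf-2lf, and hsf-1 shows 1 low daf-2lf library.

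hif-1 encodes the hypoxia factor whose protein is degraded through EGL-9 and VHL-1 when oxygen is present. It lies on chromosome V at 20780407 to 20785260, plus strand, and had the highest level of the 9. Its libraries held 362, 369 and 358 CPM in the double mutant, 394, 395 and 357 CPM in daf-2lf, 305, 290.0 and 266 CPM in skn-1gf, and 214, 224 and 228 CPM in wild type. The genotypes formed 3 steps without overlap, with wild type lowest, skn-1gf between, and the double mutant and daf-2lf together at the top. hif-1 rose in daf-2lf against wild type by 0.78 (SE 0.110, edgeR adjusted p = 8.75e-05) and in skn-1gf against wild type by 0.37 (SE 0.109, edgeR adjusted p = 0.017). The daf-2lf call held in every alternative, and the skn-1gf call in 16 of 22, with adjusted p of 0.0728, 0.0505 and 0.0793 without replicate 1 of wild type, replicate 2 of wild type and replicate 1 of skn-1gf. The skn-1gf call had an adjusted p of 0.125 where libraries were scaled by DESeq2's size factors.

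In the double mutant, hif-1 rose by 0.34 against skn-1gf (SE 0.109, edgeR adjusted p = 0.0329), a call made in 9 of 22 alternatives. It was lost without any 1 library of wild type (adjusted p 0.0518 to 0.0563), of skn-1gf (0.0688 to 0.0937) or of the double mutant (0.0851 to 0.108). Against daf-2lf the difference was -0.08, with a 95% interval of -0.313 to 0.162. Its interaction was -0.45 (SE 0.154, edgeR adjusted p = 0.0491), which lies at the threshold and was called in 6 of 21 alternatives. Its adjusted p was 0.0638 with DESeq2, up to 0.127 where 1 library was left out and up to 0.305 over all alternatives, the last without a filter on low counts. In the double mutant against wild type hif-1 rose by 0.71 (SE 0.110, edgeR adjusted p = 0.00019), a call lost among 22 alternatives only where length trends were removed (adjusted p = 0.0814). Of the 12 libraries, leaving out any but replicate 3 of skn-1gf and replicates 1 and 3 of daf-2lf ended the interaction call.

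hlh-30, the worm relative of TFEB that controls autophagy and lysosome genes, lies on chromosome IV at 4014795 to 4034784, minus strand. It had 213, 208 and 203 CPM in the double mutant, 209, 201 and 188 CPM in daf-2lf, 119, 135 and 133 CPM in skn-1gf, and 108, 112 and 109.7 CPM in wild type. The 6 libraries with daf-2lf lay well above the 6 without it. hlh-30 rose in daf-2lf against wild type by 0.86 (SE 0.112, edgeR adjusted p = 5.01e-05) and in the double mutant against skn-1gf by 0.69 (SE 0.111, edgeR adjusted p = 0.000365). Relative to wild type it rose by 0.92 in the double mutant (SE 0.112, edgeR adjusted p = 2.6e-05). The call against skn-1gf was lost where each library's length trend was removed (adjusted p = 0.153). In skn-1gf against wild type the libraries did not overlap, but the difference of 0.22 (SE 0.111, edgeR adjusted p = 0.121) was not called. The double mutant differed from daf-2lf by 0.06, with a 95% interval of -0.18 to 0.303.

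hsf-1 encodes the heat shock factor, and its table entry runs on chromosome I from 11953509 to 11961984, minus strand. It had 38.8, 33.6 and 36.7 CPM in the double mutant, 17.96, 32.3 and 31.98 CPM in daf-2lf, 34.8, 29.6 and 39.2 CPM in skn-1gf, and 38.4, 38.8 and 35.2 CPM in wild type. Of the 9 genes it alone averaged lower in all 3 mutant genotypes than in wild type, and no contrast was called for it. The daf-2lf libraries lay below all double mutant and wild-type libraries, with replicate 1 far below the others. In daf-2lf against wild type the difference was -0.45 (SE 0.207, edgeR adjusted p = 0.0855), and without that replicate the adjusted p was 0.0461. In that library hsf-1 deviated by -0.837 from the other daf-2lf libraries on the log2 scale, where the median gene of like length deviated by -0.464. The double mutant differed from daf-2lf by 0.41 (SE 0.207, edgeR adjusted p = 0.387), with a 95% interval of -0.0444 to 0.857.

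pha-4, the FoxA gene of the foregut, lies on chromosome V at 20753052 to 20760317, plus strand. It had 30.9, 27.6 and 28.9 CPM in the double mutant, 25.8, 27.3 and 30.4 CPM in daf-2lf, 15.2, 12.8 and 15.8 CPM in skn-1gf, and 13.7, 13.1 and 14.3 CPM in wild type. Its libraries fell into a high set with daf-2lf and a low set without it, with no overlap. pha-4 rose in daf-2lf against wild type by 1.03 (SE 0.138, edgeR adjusted p = 6.33e-05) and in the double mutant against skn-1gf by 0.99 (SE 0.138, edgeR adjusted p = 0.00011), and both calls held in every alternative. It also rose in the double mutant against wild type, by 1.09 (SE 0.138, edgeR adjusted p = 3.51e-05). In skn-1gf against wild type the difference was 0.10 (SE 0.138, edgeR adjusted p = 0.587), and in the double mutant relative to daf-2lf it was 0.07, with a 95% interval of -0.23 to 0.361. Beside the rise of pha-4 in daf-2lf, 1 of the 8 pharyngeal markers rose and 0 fell, where 29.5% of all tested genes rose and 22.9% fell.

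unc-62, the Meis-type homeodomain gene on chromosome V at 4497463 to 4511447, plus strand, varied least, with genotype means from 75.5 to 93.6 CPM. It had 94.1, 87.2 and 93.8 CPM in the double mutant, 98.5, 92.8 and 89.4 CPM in daf-2lf, 71.0, 79.6 and 75.9 CPM in skn-1gf, and 75.5, 77.5 and 77.0 CPM in wild type. The 6 libraries with daf-2lf all lay above the 6 without it, yet no contrast was called. In daf-2lf against wild type the difference was 0.29 (SE 0.114, edgeR adjusted p = 0.0512), and in the double mutant against skn-1gf it was 0.28 (SE 0.114, edgeR adjusted p = 0.0829). Without replicate 1 of daf-2lf the second of these had an adjusted p of 0.00889 and was called. The double mutant differed from daf-2lf by -0.03, with a 95% interval of -0.278 to 0.219.

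Between the double mutant and daf-2lf, the pair the series was made for, edgeR called 0 of the 9 genes. Over all tested genes 1.62% were called there, 1.01% higher and 0.616% lower, so a count of 0 among 9 lies near that background. At an unadjusted p under 0.05 the count was also 0, as it was with DESeq2 and limma-voom, while limma-voom with library quality weights called 1, pqm-1, as lower (adjusted p = 0.027). The widest interval of the 9 was that of elt-7, -0.88 to 0.161. hsf-1 was the only member whose double mutant libraries lay wholly on one side of those of daf-2lf, above them, where 11.5% of tested genes lay wholly above, 12.2% wholly below and 23.7% on either side.

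In daf-2lf against wild type 7 of the 9 rose and 0 fell, where 52.3% of tested genes were called, 29.5% higher and 22.9% lower. The members' median change was 0.78 on the log2 scale, against a median of 0.145 over all tested genes. Over the 561 tested genes annotated with a transcription factor family the median was 0.534. The members that rose were pqm-1, elt-3, pha-4, hlh-30, hif-1, elt-7 and elt-2, and the 2 not called were unc-62 and hsf-1. Libraries of daf-2lf and wild type did not overlap for all 9, with 8 higher and hsf-1 lower, where 31.9% of tested genes lay wholly higher, 29.3% wholly lower and 61.2% on either side. Without replicate 1 of daf-2lf, 6 rose and 1, hsf-1, fell. With DESeq2's size factors as scaling, 5 rose and 1, hsf-1, fell.

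In skn-1gf against wild type 3 of 9 rose, pqm-1, elt-3 and hif-1, and 0 fell, where 43.6% of tested genes were called, 22.6% higher and 21% lower. The median change of the 9 was 0.22, against 0.03 over all tested genes. Over the 561 tested genes annotated with a transcription factor family the median was 0.424, above that of the 9. Libraries did not overlap for 4 members, pqm-1, elt-3, hlh-30 and hif-1, all higher in skn-1gf, where 34.2% of tested genes lay wholly higher, 33.2% wholly lower and 67.4% on either side.

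In the double mutant against skn-1gf 3 of 9 rose, pha-4, hlh-30 and hif-1, and 0 fell, where 31.7% of tested genes were called, 13.4% higher and 18.4% lower. Without replicate 1 of daf-2lf in the fit, 4 rose and 1 fell. Libraries did not overlap for 7 members, 5 higher and 2 lower, where 26.2% of tested genes lay wholly higher, 30.2% wholly lower and 56.3% on either side. Against wild type, 5 of 9 rose in the double mutant, pqm-1, elt-3, pha-4, hlh-30 and hif-1, where 47.3% of tested genes were called, 26.2% higher and 21.1% lower. There 8 members, all but hsf-1, had libraries without overlap, each higher in the double mutant, where 40.6% of tested genes lay wholly higher, 35.6% wholly lower and 76.2% on either side. The comparisons with wild type share its 3 libraries, and those of the double mutant share its own.

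The interaction was called for 3 of 9, pqm-1, elt-3 and hif-1, all negative, where 27.7% of tested genes were called, 9.91% positive and 17.7% negative. That of hif-1 was lost in 15 of 21 alternatives, in each of which 2 members were called. For the other members the interaction was 0.52 for hsf-1 (edgeR adjusted p = 0.197), -0.53 for elt-2 (edgeR adjusted p = 0.153) and -0.28 for elt-7 (edgeR adjusted p = 0.569). For pha-4, hlh-30 and unc-62 it was -0.03, -0.16 and -0.01. The genes raised by skn-1gf in the wild-type background were thus those with a called negative interaction, and both quantities use the same skn-1gf and wild-type libraries.

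The balance of higher and lower calls over the whole table depended on how libraries were scaled. In skn-1gf against wild type 51.8% of the called genes were higher with TMM, against 40.4% with DESeq2's size factors. For daf-2lf against wild type these shares were 56.3% and 45.2%, for the double mutant against wild type 55.3% and 43.5%, and for the interaction 35.8% and 48.3%. With DESeq2's size factors the median change of all genes was -0.131 in skn-1gf against wild type (0.0252 with TMM), -0.033 in daf-2lf against wild type (0.145), -0.105 in the double mutant against wild type (0.0763) and 0.109 for the interaction (-0.0463). No called change of a member took the other sign under any alternative.

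Genes annotated with a transcription factor family in the deposited table give a second background. Of 561 such genes tested, 45.5% rose and 11.2% fell in daf-2lf against wild type, and 39% rose and 7.66% fell in skn-1gf against wild type. Between the double mutant and daf-2lf 0.713% of them were called. Their median change was 0.534 in daf-2lf, 0.424 in skn-1gf and 0.62 in the double mutant, each against wild type. The medians of the 9 members in these comparisons were 0.784, 0.224 and 0.708. For the interaction 4.81% of the 561 genes were called positive and 20.5% negative. Their median interaction was -0.328, against -0.277 for the 9 members. That annotation covers 7 of the 9 members, all but pqm-1 and hif-1.

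**Figure D4:**
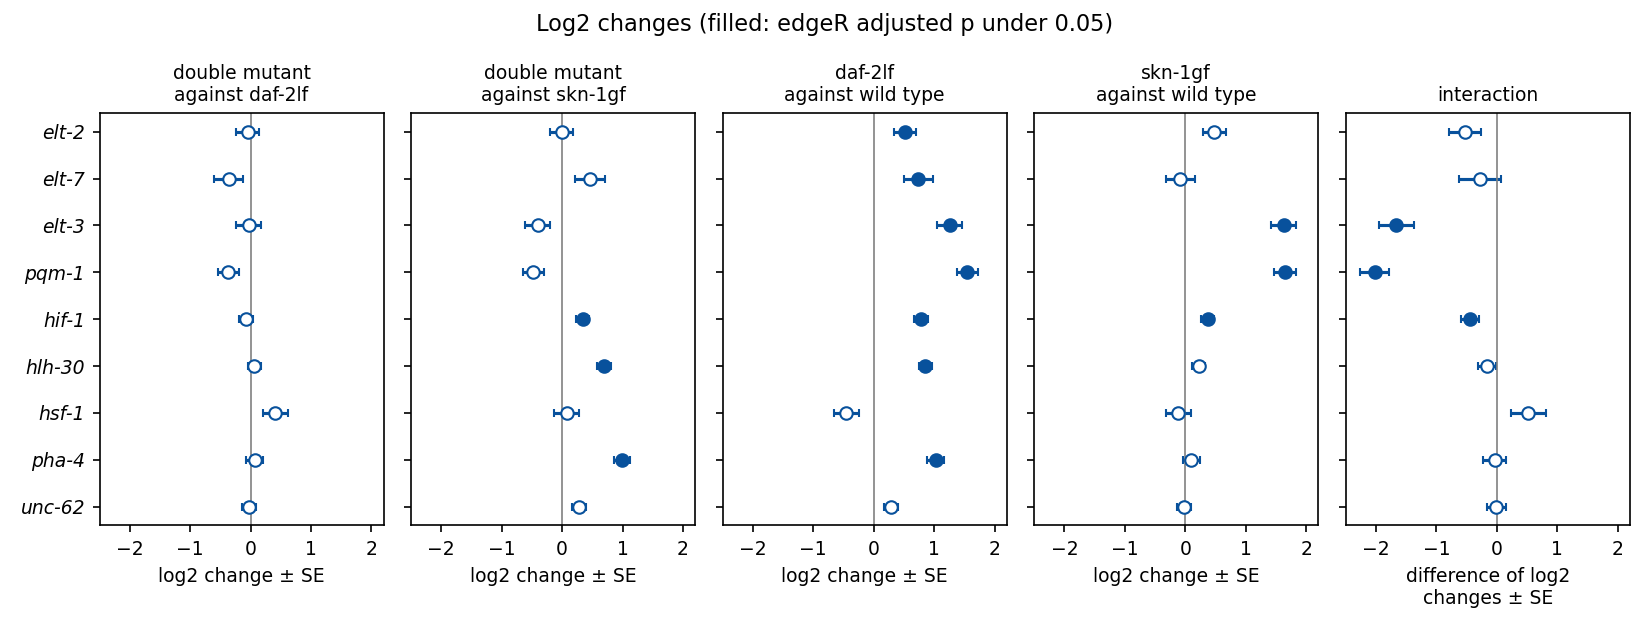
Log2 change of each of the 9 genes in 5 comparisons between genotypes, with bars of 1 SE, and filled points where edgeR's adjusted p was under 0.05. Filled points lie to the right in daf-2lf against wild type for 7 genes, and no point is filled in the double mutant relative to daf-2lf.

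The genes that ELT-2 and ELT-7 act on in the intestine form the first of 8 lists of partners and targets. Of 18 listed genes, all tested, 9 rose and 2 fell in daf-2lf against wild type, where 29.5% of all tested genes rose and 22.9% fell. The list's median was 0.615, against 0.145 over all genes. Its counts were 8 and 3 without replicate 1 of daf-2lf, with a median of 0.408. For skn-1gf against wild type 9 rose and 5 fell, where 22.6% of all tested genes rose and 21% fell. The list's median was 0.36 against 0.03, but 6 of its genes rose and 6 fell with DESeq2's size factors. Among those that rose were ifb-2, which encodes an intestinal intermediate filament, and cdr-1, a cadmium-response gene. ifb-2 averaged 396 CPM in the double mutant, 484 CPM in daf-2lf, 614 CPM in skn-1gf and 179.5 CPM in wild type, while cdr-1 averaged 9.54 CPM in the double mutant, 4.52 CPM in daf-2lf, 4.75 CPM in skn-1gf and 1.37 CPM in wild type.

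The yolk protein genes vit-2 and vit-5 were the lowest of that list against wild type. vit-2 averaged 0.0571 CPM in the double mutant, 0.0566 CPM in daf-2lf, 5.25 CPM in skn-1gf and 105.7 CPM in wild type, and fell in skn-1gf by 4.32 on the log2 scale (edgeR adjusted p = 1.34e-06). vit-5 had 0 counts in every double mutant and daf-2lf library and averaged 3.64 CPM in wild type, so it was at least 20.3-fold lower in daf-2lf against a floor of 3 counts per library. In skn-1gf vit-5 averaged 0.0138 CPM, with at most 1 count in a library, and was at least 19-fold lower by the same floor. Germline and oocyte markers were low in the same genotypes, and their part in these values was not tested. The vit genes belong to a family of close copies, and how reads shared between copies were counted is not given in the sources used here.

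Relative to daf-2lf, in the double mutant 2 of these 18 intestinal genes fell and 0 rose, where 0.616% of all tested genes fell and 1.01% rose. The 2 were cpr-1, a cathepsin B-like protease gene, and pgp-1, which encodes a P-glycoprotein transporter. cpr-1 averaged 288 CPM in the double mutant and 766 CPM in daf-2lf, a change of -1.41 (edgeR adjusted p = 0.038). pgp-1 averaged 61.1 CPM in the double mutant and 103.9 CPM in daf-2lf, a change of -0.77 (edgeR adjusted p = 0.0208). The call of cpr-1 was lost in 11 of 22 alternatives, 9 of which left out 1 library, with the highest adjusted p, 0.189, without replicate 3 of the double mutant and 0.112 without replicate 1 of daf-2lf. That of pgp-1 was lost in 4 of 22, without any 1 double mutant library (adjusted p 0.0813 to 0.141) and with only the groups compared in the fit (0.144). Without any 1 double mutant library neither was called, and without replicate 1 of daf-2lf 1 of the 18 fell. Without replicate 2 or replicate 3 of wild type, 1 of the 18 rose and 1 fell.

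Among the other GATA factor genes, 5 of 9 were tested, and the early endoderm factors end-1, end-3, med-1 and med-2 had too few counts. Against wild type, 3 rose and 0 fell in daf-2lf, with a median of 1.35, and 2 rose and 0 fell in skn-1gf, with a median of 0.65. Over all tested genes 29.5% rose and 22.9% fell in daf-2lf, with a median of 0.145. In skn-1gf 22.6% rose and 21% fell, with a median of 0.03. Of the 561 tested genes with a transcription factor family 45.5% rose and 11.2% fell in daf-2lf, with a median of 0.534. In skn-1gf 39% of the 561 rose and 7.66% fell, with a median of 0.424. egl-18, a GATA factor gene of the seam cells, averaged 29.98 CPM in the double mutant, 22.96 CPM in daf-2lf, 17.97 CPM in skn-1gf and 7.87 CPM in wild type. It rose by 1.54 in daf-2lf and by 1.19 in skn-1gf, each against wild type. elt-4, a short relative of elt-2, rose by 1.38 in daf-2lf against wild type at 2.15 CPM in daf-2lf and 0.825 CPM in wild type.

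Genes of the PQM-1 and DAF-16 classes are those that insulin signalling controls. The list pools both classes and daf-16 itself, so its counts and medians do not tell the classes apart. Of 14 tested out of 15, 10 rose and 1 fell in daf-2lf against wild type, while 6 rose and 5 fell in skn-1gf against wild type. Over all tested genes 29.5% rose and 22.9% fell in daf-2lf, and 22.6% rose and 21% fell in skn-1gf. The list's median change was 0.75 in daf-2lf and 0.18 in skn-1gf, against 0.145 and 0.0252 over all genes. The skn-1gf median was 0.0227 with DESeq2's size factors and ran from -0.00577 without replicate 3 of wild type to 0.519 without replicate 3 of skn-1gf. It was 0.509 without replicate 1 of wild type, 0.0161 and 0.0157 without replicates 1 and 2 of skn-1gf, and 0.084 without replicate 1 of daf-2lf. sod-3, a superoxide dismutase gene that DAF-16 activates, rose by 3.63 in daf-2lf and fell by 1.41 in skn-1gf, each against wild type. mtl-1, a metallothionein gene, rose by 5.03 in daf-2lf against wild type, at 3.95 CPM in daf-2lf and 0.1105 CPM in wild type, a level near that of 3 counts. daf-16 itself averaged 196 ± 5.10 CPM in the double mutant, 171 ± 48.6 CPM in daf-2lf, 146 ± 3.26 CPM in skn-1gf and 129.6 ± 5.65 CPM in wild type (SD, n = 3 each), and its difference in daf-2lf against wild type was 0.40 (edgeR adjusted p = 0.0793). Replicate 1 of daf-2lf held 116 CPM of daf-16, against 208 and 190 CPM in the other daf-2lf libraries. Without it daf-16 rose by 0.51 in daf-2lf against wild type (edgeR adjusted p = 0.000207) and by 0.41 in the double mutant against skn-1gf (0.000517, against 0.0931 with it).

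In the same list, dod-24 and dod-17, known as genes downstream of DAF-16, were the 2 of 14 that rose in the double mutant relative to daf-2lf. None fell, where 1.01% of all tested genes rose and 0.616% fell. dod-24 averaged 844 CPM in the double mutant, 11.04 CPM in daf-2lf, 2680.0 CPM in skn-1gf and 50.5 CPM in wild type, and rose by 6.25 in the double mutant relative to daf-2lf (edgeR adjusted p = 4.41e-07). dod-17 averaged 142.4 CPM in the double mutant, 15.1 CPM in daf-2lf, 542 CPM in skn-1gf and 22.8 CPM in wild type, and rose by 3.24 in the double mutant relative to daf-2lf (edgeR adjusted p = 5.63e-05). Both genes averaged higher in each genotype with skn-1gf than in either genotype without it.

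Of 12 genes that control HIF-1 or respond to it, 6 rose and 2 fell in skn-1gf against wild type (6 and 4 without replicate 1 of daf-2lf), with a median of 0.57 against 0.03 over all genes. For daf-2lf against wild type 3 rose and 3 fell, with a median of 0.05 against 0.145, and that median was -0.133 with DESeq2's size factors and 0.00442 to 0.197 with 1 library left out (the extremes without replicate 3 of daf-2lf and replicate 3 of wild type). Over all tested genes 22.6% rose and 21% fell in skn-1gf, and 29.5% rose and 22.9% fell in daf-2lf. Between the double mutant and daf-2lf 2 of the 12 rose and 1 fell, where 1.01% of all tested genes rose and 0.616% fell. cysl-2, a cyanide-detoxifying synthase gene that HIF-1 activates, averaged 345 CPM in the double mutant, 102 CPM in daf-2lf, 254 CPM in skn-1gf and 100.3 CPM in wild type. It rose by 1.75 in the double mutant relative to daf-2lf (edgeR adjusted p = 0.00671, and 0.0802 with only these groups in the fit) and by 1.34 in skn-1gf against wild type.

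rhy-1, which encodes a membrane protein that restrains HIF-1, averaged 61.97 CPM in the double mutant, 24.6 CPM in daf-2lf, 62.9 CPM in skn-1gf and 37.3 CPM in wild type. It rose by 1.34 in the double mutant relative to daf-2lf (edgeR adjusted p = 0.000631). F22B5.4 fell by 1.78 in the double mutant relative to daf-2lf (edgeR adjusted p = 0.0191), at 0.428 CPM in the double mutant and 1.48 CPM in daf-2lf, a call lost in 5 of 22 alternatives: without replicate 1 of daf-2lf (adjusted p = 0.0551), without any 1 double mutant library (0.0655 to 0.107) and with only the groups compared in the fit (0.143). cysl-1, whose product inhibits EGL-9, averaged 134 CPM in the double mutant, 123 CPM in daf-2lf, 136 CPM in skn-1gf and 65.8 CPM in wild type, and rose in both single mutants against wild type.

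For HLH-30, 17 of 18 partners and targets were tested. Over all tested genes 29.5% rose and 22.9% fell in daf-2lf, and 22.6% rose and 21% fell in skn-1gf, each against wild type. Of the 17, 11 rose and 1 fell in daf-2lf, with a median of 0.465 against 0.145 over all genes. In skn-1gf 9 of the 17 rose and 1 fell. With DESeq2's size factors these counts were 7 and 1 for daf-2lf, and 6 and 3 for skn-1gf. They were 8 and 2 for daf-2lf without replicate 1 of daf-2lf, with a median of 0.244, and 10 and 4 for skn-1gf. With any other 1 library left out, 8 to 12 rose and 0 or 1 fell in daf-2lf, and 4 to 9 rose and 0 or 1 fell in skn-1gf, the fewest rises there without replicate 2 of skn-1gf and 5 and 6 without replicate 1 of wild type and of skn-1gf. The lysosomal lipase gene lipl-1 averaged 16.45 CPM in the double mutant, 26.9 CPM in daf-2lf, 4.41 CPM in skn-1gf and 2.37 CPM in wild type, and rose by 3.5 in daf-2lf against wild type (edgeR adjusted p = 2.47e-06). lipl-3 rose by 3.3 in daf-2lf against wild type, at 9.61 CPM in daf-2lf and 0.969 CPM in wild type. The gene that fell in both was xpo-1, which encodes the exportin that carries HLH-30 out of the nucleus, at 233 CPM in the double mutant, 212.5 CPM in daf-2lf, 210.5 CPM in skn-1gf and 313 CPM in wild type. Its fall in daf-2lf was lost in 6 of 22 alternatives: without any 1 wild-type library or replicate 2 of daf-2lf (adjusted p 0.0634 to 0.084), with upper-quartile scaling (0.0532) and with length trends removed (0.507). Its fall in skn-1gf was lost in 11 of 22, with adjusted p up to 0.115. In the double mutant relative to daf-2lf edgeR called 0 of the 17 (1 and 2 lower without replicates 1 and 3 of daf-2lf), where 1.62% of all tested genes were called. The list's median there was -0.211, and -0.267 to -0.159 with 1 library left out, against 0 over all genes. A negative interaction was called for 9 and a positive one for 0, where 17.7% of all tested genes were negative and 9.91% positive.

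Few HSF-1 regulators and targets were called against wild type, where 52.3% of all tested genes were called in daf-2lf and 43.6% in skn-1gf. Of 18, 11 were tested, and most small heat shock protein genes, such as hsp-16.1 and hsp-16.41, had too few counts. Against wild type 1 rose and 1 fell in daf-2lf, and 0 rose and 1 fell in skn-1gf, or 0 and 3 with DESeq2's size factors. With 1 library left out, 1 or 2 rose and 0 to 2 fell in daf-2lf. The median was 0.02 in daf-2lf and -0.06 in skn-1gf, and the daf-2lf median was -0.159 with those size factors and -0.205 without replicate 1 of daf-2lf. Without that library 1 rose and 3 fell in skn-1gf, and without replicate 3 of skn-1gf 0 rose and 3 fell. edgeR called 0 of the 11 between the double mutant and daf-2lf, where 1.62% of all tested genes were called. sip-1, a small heat shock protein gene, averaged 219.6 CPM in the double mutant, 172.5 CPM in daf-2lf, 5.65 CPM in skn-1gf and 27.2 CPM in wild type. It rose by 2.67 in daf-2lf and fell by 2.25 in skn-1gf, each against wild type. hsp-110 fell by 0.43 in daf-2lf against wild type (edgeR adjusted p = 0.0258), a call lost in 6 of 22 alternatives: without any 1 wild-type library or replicate 2 of daf-2lf (0.0584 to 0.0817), with upper-quartile scaling (0.121) and with length trends removed (0.452).

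For PHA-4, 13 of 14 partners and pharyngeal genes were tested. In daf-2lf against wild type 3 rose and 0 fell, where 29.5% of all tested genes rose and 22.9% fell. The list's median there was 0.475, against 0.145 over all genes. That median was 0.134 without replicate 1 of daf-2lf, and without replicate 2 of daf-2lf it was 0.752, with 6 called higher. pha-1, whose loss disrupts the pharynx, averaged 31.9 CPM in the double mutant, 34.5 CPM in daf-2lf, 31.8 CPM in skn-1gf and 17.2 CPM in wild type. For skn-1gf against wild type 2 rose and 2 fell, where 22.6% of all tested genes rose and 21% fell. Those of the list that fell were the pharyngeal gland genes phat-1 and phat-2. The list's median was -0.31, against 0.03 over all genes. That median ran from -0.611 without replicate 3 of skn-1gf, where 3 fell, to 0.00362 without replicate 2 of skn-1gf. It was -0.161 without replicate 1 of skn-1gf and without replicate 3 of wild type, and -0.469 without replicate 2 of wild type, while 4 fell without replicate 1 of daf-2lf. Beside them, the pharyngeal marker sum was 33.3 CPM in 1 skn-1gf library, and its part in these values was not tested. phat-1 averaged 8.54 CPM in the double mutant, 10.04 CPM in daf-2lf, 0.855 CPM in skn-1gf and 11.1 CPM in wild type. The phat genes resemble each other, and how shared reads were counted is not given in the sources used here.

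Of the 9 homeodomain genes listed as partners of UNC-62, 8 were tested. Against wild type 5 rose in each single mutant, while 1 fell in daf-2lf and 0 in skn-1gf. Over all tested genes 29.5% rose and 22.9% fell in daf-2lf, and 22.6% rose and 21% fell in skn-1gf. The median of the 8 was 1.10 in daf-2lf and 1.45 in skn-1gf, against 0.145 and 0.03 over all genes. Of the 561 tested genes with a transcription factor family 45.5% rose in daf-2lf and 39% in skn-1gf. The medians of the 561 were 0.534 and 0.424. php-3 averaged 37 CPM in the double mutant, 46.7 CPM in daf-2lf, 46.4 CPM in skn-1gf and 10.4 CPM in wild type, while egl-5 averaged 12.3 CPM in the double mutant, 12.9 CPM in daf-2lf, 15.1 CPM in skn-1gf and 3.67 CPM in wild type. ceh-60, the partner of UNC-62 at yolk protein genes, averaged 1.65 CPM in the double mutant, 1.53 CPM in daf-2lf, 20.5 CPM in skn-1gf and 12.9 CPM in wild type. It fell by 3.1 in daf-2lf against wild type (edgeR adjusted p = 6.2e-05), while unc-62 itself had a difference of 0.29 in that pair. Between the double mutant and daf-2lf edgeR called 0 of these 8 genes, 0 of the 13 listed for PHA-4 and 0 of the 5 other GATA factor genes. Over all tested genes 1.62% were called in that pair.

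**Figure D5:**
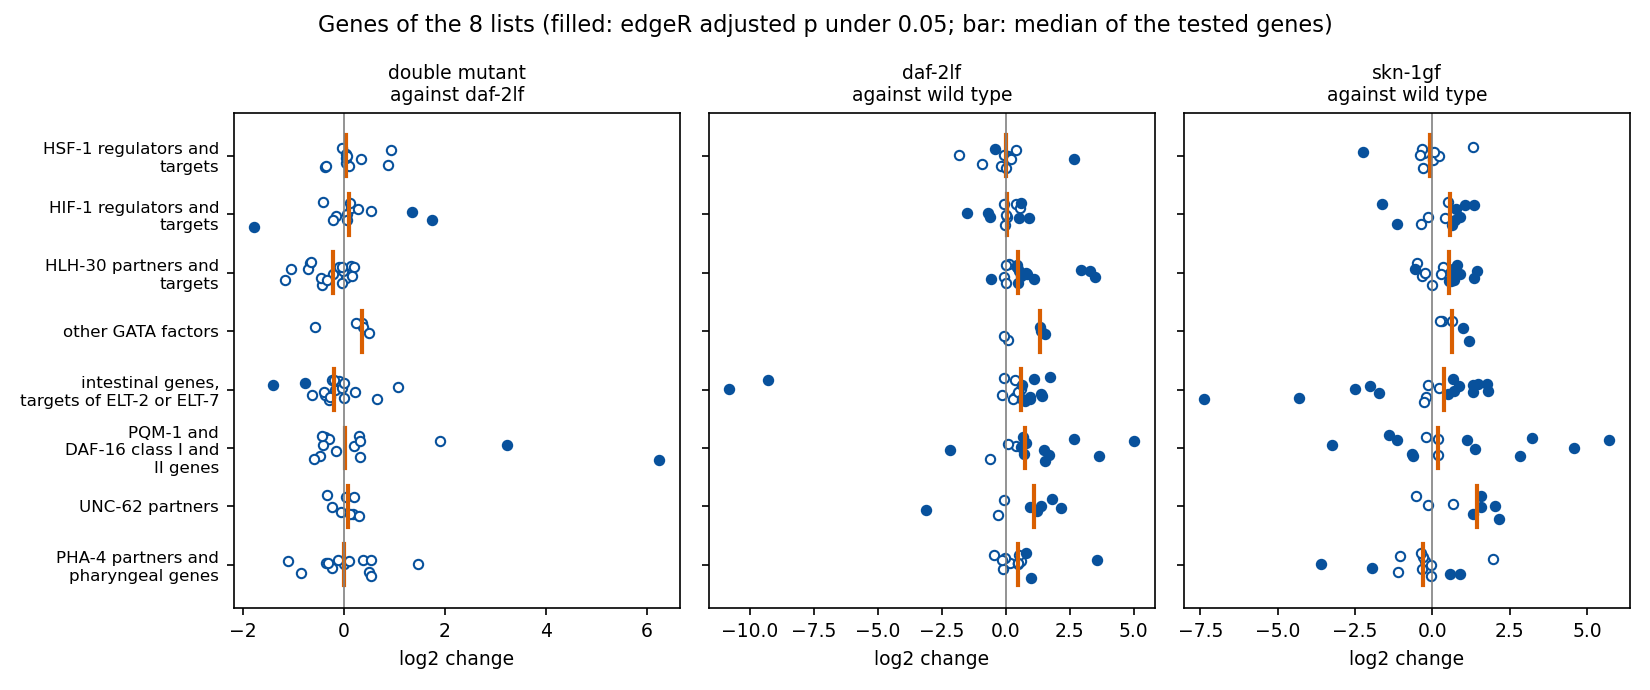
Log2 change of each tested gene of 8 lists of partners and targets in 3 comparisons, with the list's median as a line and axes that differ between panels. The points of vit-5, and those of vit-2 in the comparisons that hold daf-2lf, are fitted values with a genotype at or near 0 counts. All lists but those for HSF-1 and PHA-4 have medians above 0 in both single mutants against wild type. For HLH-30 and UNC-62 the medians in the double mutant relative to daf-2lf are -0.211 and 0.0867.

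The genes whose level most resembled each member's were found by Pearson's r of log2 CPM over the 12 libraries, which share genotype, depth and the library that stood apart. For pqm-1 these were mpst-3 at 0.992, C23H5.15 at 0.991 and F55B11.4 at 0.988. For elt-2 they were K01F9.2 at 0.949, pbo-6 at 0.945 and inx-15 at 0.941, and for elt-7 they were ugt-5 at 0.973, trpp-1 at 0.972 and ipla-7 at 0.971. For elt-3 they were grd-3 at 0.997, ttr-8 at 0.990 and Y37D8A.3 at 0.989.

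hif-1 was most like fkh-9 at 0.988, kin-1 at 0.986 and snn-1 at 0.986, and hlh-30 was most like aak-2 at 0.985, kin-20 at 0.984 and R06A10.4 at 0.983. aak-2 encodes a catalytic subunit of the AMP-activated kinase. hsf-1 was most like rha-1 at 0.976, let-765 at 0.976 and cul-1 at 0.975. pha-4 was most like lin-41 at 0.988, Y39G8B.7 at 0.983 and pals-27 at 0.982, and unc-62 was most like C35B1.8 at 0.968, ceh-16 at 0.967 and F19C7.8 at 0.966.

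Without replicate 1 of daf-2lf, over 11 libraries, the nearest genes stayed in part. grd-3 was still nearest to elt-3 at 0.997 and K01F9.2 to elt-2 at 0.972, and mpst-3, ugt-5, R06A10.4, fkh-9 and ceh-16 remained among the 3 nearest of their member. For hsf-1 all 3 were other genes, with gsk-3 first at 0.931, and for pha-4 all 3 were other genes, with unc-2 first at 0.994. The nearest genes of hsf-1 over 12 libraries thus rest on that library.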

How the data were processed

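RNA of whole worms was sequenced in 12 libraries, 3 for each of 4 genotypes, and groups came from the sample titles. The authors deposited whole-number counts per gene, not normalized, and no per-sample column was left unused (0). Aligner, counting program, strand handling and the treatment of reads shared between genes are not given in the sources used here. The submitters' processing notes name the build ce10, while per the file headers the chromosome versions are those of WBcel235. Coordinates are those of the deposited table, and 5 of the 9 genes have the same ones in the Ensembl annotation of WBcel235, all but hsf-1, elt-3, hlh-30 and unc-62. Gene length, as deposited, enters RPKM.

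Counts were analysed with edgeR 4.0.16 in R 4.3.3. Genes passing filterByExpr (minimum count 10) numbered 15575. After TMM scaling, all 12 libraries entered 1 quasi-likelihood model with a mean for each genotype, with Benjamini-Hochberg adjustment at 0.05. The interaction subtracts the skn-1gf effect in wild type from that in daf-2lf. Correlations used log2 CPM with a prior count of 2. The fits were tested on simulated data. Alternatives included DESeq2 1.42.0, limma 3.58.1, other scalings and filters, library quality weights, removal of each library's length trend, a replicate block, and leaving out each library. Named genes were the 9 members, up to 2 called genes with the largest rise and fall of each list in 3 comparisons, and the 3 genes most like each member. Members, lists and markers were chosen with earlier results of these data known. daf-21 was not found in the table under that name, and no promoter or protein sequence was used.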

Additional observations from a re-analysis of the deposited data

Results flagged for a closer look

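The effect of skn-1gf differed between the wild-type and the daf-2lf background for 3 of the 9 genes, by the test of the interaction itself. For pqm-1 the interaction was -2.024 on the log2 scale (edgeR adjusted p = 0.000198), for elt-3 it was -1.663 (edgeR adjusted p = 0.00176) and for hif-1 it was -0.4467 (edgeR adjusted p = 0.0491). The call of hif-1 was made in 6 of 21 alternatives, and its adjusted p was 0.0638 with DESeq2 and 0.0765 with the replicate block. A negative value means that skn-1gf raised the gene less, or lowered it, in the daf-2lf background. Over all tested genes 27.7% had a called interaction. Intestinal markers and germline markers differed from wild type in the same mutant genotypes, and their part in these values was not tested.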

How the results depend on the processing

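Each of 54 member values was recomputed under 22 alternatives (21 for the interaction), 1179 values in all, of which 1043 kept their direction and their side of the threshold. Of 21 called values 14 were called in every alternative and 0 changed sign. The uncalled values that changed sign are listed here; the cause was not tested. In skn-1gf against wild type, pha-4 was -0.05635 with DESeq2's size factors, -0.002441 without a filter, -0.05266 with DESeq2 and -0.003526 with length trends removed, and unc-62 was 0.007119 with upper-quartile scaling and 0.0124 with length trends removed. With 1 library left out, elt-7 ranged from -0.29 to 0.1014 and unc-62 from -0.114 to 0.01612. For the double mutant and daf-2lf, pha-4 was -0.04108 and hlh-30 -0.05636 with upper-quartile scaling, and -0.2064 and -0.4167 with length trends removed, while leaving out 1 library gave -0.1419 to 0.06275 for elt-2, -0.09892 to 0.01943 for elt-3 and -0.06007 to 0.009435 for unc-62. For the double mutant and skn-1gf, hsf-1 was -0.007615 with upper-quartile scaling, -0.09547 with length trends removed and -0.05997 to 0.171 with 1 library left out, and elt-2 was 0.02347 with limma-voom and -0.2017 to 0.08816 with 1 library left out. Against wild type, hsf-1 in the double mutant ranged from -0.1502 to 0.008709. The interaction of elt-7 was 0.2104 with length trends removed and -0.4594 to 0.04771 with 1 library left out. That of pha-4 was 0.1197 with DESeq2's size factors, 0.07626 without a filter, 0.1162 with DESeq2 and -0.1214 to 0.03379 with 1 library left out, and that of unc-62 was 0.1481, 0.1066, 0.1484 and -0.04502 to 0.1235 in the same order, and 0.04598 with quality weights.

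The counts of called genes moved most with library quality weights, which gave 11743 genes and 5 members in skn-1gf against wild type, 2113 genes and 1 member for the double mutant and daf-2lf, 10101 genes and 7 members for the double mutant and skn-1gf, 12047 genes and 8 members for the double mutant and wild type, and 9444 genes for the interaction. The count for the double mutant and daf-2lf, 253, was 550 with DESeq2, 109 with only these groups in the fit and 139 to 469 with 1 library left out (139, 150 and 154 without replicate 1, 2 or 3 of the double mutant, 469 without replicate 3 of daf-2lf). With only the groups compared, the double mutant and wild type gave 11113 genes, and the double mutant and skn-1gf gave 6 members, against 5 with DESeq2 and 2 to 5 with 1 library left out. The interaction gave 2786 to 5921 genes with 1 library left out, the lowest without replicate 1 of wild type.

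Replicate numbers recur in every genotype, but same-numbered libraries deviated together little: their correlation ran from -0.129 to 0.296 over 18 pairs, with 2 over 0.1, and in 5 of 18 cases the best match had the same number. They share only a number. With the replicate block the calls came to 6618, 7918, 211, 4727, 7215 and 4080 genes, and to 3, 7, 0, 2, 5 and 2 members, for skn-1gf against wild type, daf-2lf against wild type, the double mutant against daf-2lf, skn-1gf and wild type, and the interaction. elt-2 was then 0.008661 between the double mutant and skn-1gf, and hif-1 had an adjusted p of 0.0548 there and 0.0765 for the interaction. With 3 libraries a group, small changes of elt-7, the lowest member at 119 counts in 1 library, were hardest to detect.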

Other observations

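The altered genes themselves differed in RNA level. skn-1 averaged 220.2 ± 12.1 CPM in the double mutant, 172 ± 6.25 CPM in daf-2lf, 149 ± 3.66 CPM in skn-1gf and 118 ± 7.06 CPM in wild type (SD, n = 3 each), with no overlap between genotypes. The 4 genes that overlap skn-1 had counts equal to 24.7% of its own, all from the opposite strand. How strands were handled in counting is not given, and the part of these genes in the skn-1 values was not tested. daf-2 averaged 127 ± 4.07 CPM in the double mutant, 92.7 ± 57.1 CPM in daf-2lf, 91.9 ± 2.66 CPM in skn-1gf and 67.5 ± 1.29 CPM in wild type (SD, n = 3 each), and with all libraries edgeR called no comparison for it. Replicate 1 of daf-2lf held 26.8 CPM of daf-2, against 125 and 126 CPM in the other daf-2lf libraries. Without that library daf-2 rose by 0.79 in daf-2lf (edgeR adjusted p = 8.83e-06), by 0.35 in skn-1gf (0.0013) and by 0.81 in the double mutant (1.98e-06), each against wild type. It also rose by 0.46 in the double mutant against skn-1gf (0.000213), and its interaction was -0.335 (0.0241). The suffixes name changes of activity, which an RNA level does not check. Neuronal markers summed to 664 to 686 CPM in the double mutant, 616 to 735 CPM in daf-2lf, 502 to 633 CPM in skn-1gf and 352 to 394 CPM in wild type. Of these 8, 5 rose in daf-2lf and 4 in skn-1gf, each against wild type, where 29.5% and 22.6% of all tested genes rose. Body wall muscle markers summed to 12056 to 14181 CPM in the double mutant, 9404.4 to 11424 CPM in daf-2lf, 9092.7 to 11683 CPM in skn-1gf and 10279 to 10450 CPM in wild type.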
